A study of Mus musculus with 16 samples.

Results

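The 10 genes described here are encoded by the mouse mitochondrial genome and specify core subunits of the respiratory chain: mt-Nd1, mt-Nd2, mt-Nd4, mt-Nd5 and mt-Nd6 of complex I, mt-Cytb of complex III, mt-Co1, mt-Co2 and mt-Co3 of complex IV, and mt-Atp6 of complex V. They were chosen by gene symbol, are 10 of the 13 protein genes of that genome, and are 10 of the 22372 genes measured. RNA was sequenced from heart ventricles of C57BL/6J mice that were 10 to 12 weeks old at the start. The 4 groups held 4 mice each: sham surgery with vehicle (Sham-Veh), sham surgery with THZ1 (Sham-THZ1), transverse aortic constriction with vehicle (TAC-Veh) and constriction with THZ1 (TAC-THZ1). THZ1 inhibits the transcriptional kinases CDK7, CDK12 and CDK13, and mice received 10 mg/kg in each of 2 daily intraperitoneal injections from postoperative day 1 to day 60. Constriction of the aortic arch loads the left ventricle with pressure and leads to heart failure.

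Mitochondrial DNA is a compact circle present in many copies per cell, and the cardiomyocyte, which depends on oxidative phosphorylation, is rich in it. It is transcribed from both strands into long RNAs by a dedicated polymerase, POLRMT, and not by RNA polymerase II. The long RNAs are then cut at the tRNAs that lie between most genes, and the messages receive a poly(A) tail, although that of the human ortholog of mt-Nd6 is known to carry little or none. Of the 10 genes, mt-Nd6 is the only one whose message comes from the other strand.

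Libraries held 21.4 to 35.8 M (mega) counted reads, and the 13 mitochondrial protein genes took 33.2% to 44.7% of each. Cardiomyocyte markers were abundant in every library, with Myh6, the main adult myosin heavy chain, at 162380 to 528710 normalized counts. Nppb, the stress peptide BNP, was at 2775 to 3839 normalized counts in Sham-Veh and 13076 to 27977 in TAC-Veh.

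The ends of a few genes are shown because neighbouring genes overlap or abut there. Sequences are from the NCBIM37 mouse mitochondrial genome, on the coding strand of each gene, with start codons and stop codons or their remnants in capitals. The end of mt-Nd5 overlaps the end of mt-Nd6, on the opposite strand, over 14 bases (chrM:13552-13565). The message of mt-Co3 ends in a lone T of its stop codon, as do those of mt-Nd4 and mt-Cytb, so that polyadenylation completes the codon.
mt-Nd5, last 30 bases, chrM:11742-13565, plus strand: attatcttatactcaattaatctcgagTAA
mt-Nd6, last 30 bases, chrM:13552-14070, minus strand: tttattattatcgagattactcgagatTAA
mt-Nd6, first 30 bases: ATGaataattatatttttgttttaagttca
mt-Atp6, first 30 bases, chrM:7927-8607, plus strand: ATGaacgaaaatctatttgcctcattcatt
mt-Co3, last 30 bases, chrM:8607-9390, plus strand: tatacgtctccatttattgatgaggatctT

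Parts of the mitochondrial genome also stand as copies in the nuclear genome, and a read that fits both places need not be counted for the mitochondrial gene. In NCBIM37 every window of 40 bases (the read length in the methods of the study) of mt-Co2, mt-Atp6 and mt-Co3 occurred elsewhere, as did 62.5% of those of mt-Nd4 and 57.0% of those of mt-Co1. The share was 12.0% for mt-Nd5, 10.2% for mt-Nd2 and 1.36% for mt-Cytb, and it was 0% for mt-Nd1 and mt-Nd6. The longest copy lay on chromosome 1 (chr1:24618374-24623023). Within it, Gm10925 (chr1:24620814-24621627), annotated as a nuclear protein-coding gene and counted in its own right, contained 86.8% of the windows of mt-Atp6.

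On the scale of mean normalized counts per kilobase of exon, which corrects for gene length, mt-Co3 was highest at 2.14 M. It was followed by mt-Co1 at 1.69 M, mt-Cytb at 1.33 M, mt-Nd1 at 1.25 M, mt-Co2 at 1.20 M and mt-Nd4 at 1.05 M. Lower per kilobase were mt-Nd2 at 0.781 M, mt-Nd5 at 0.428 M, mt-Nd6 at 19838 and mt-Atp6 at 555. Each gene in this order exceeded the next in 16 of 16 libraries, except that mt-Cytb exceeded mt-Nd1 in 14 and mt-Nd1 exceeded mt-Co2 in 12, so these neighbours were not separated in every library. mt-Nd6, the light-strand gene, was at 2.79% to 7.55% of the level of its neighbour mt-Nd5 per kilobase.

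The low value of mt-Atp6 stands beside its copy: mt-Atp6 and mt-Co3 are neighbours on one long RNA, yet mt-Atp6 measured 248 to 495 normalized counts and mt-Co3 1.20 to 2.18 M. Gm10925 measured 8209 to 16749 normalized counts. The other genes with windows inside annotated nuclear genes were low too. mt-Atp8, a small complex V subunit, had 85.5% of its windows in Gm10925 and measured 28.6 to 216 normalized counts. mt-Nd4l, a small complex I subunit, had 100% of its windows in Gm10222 and measured 0 to 5.46 normalized counts, with Gm10222 itself at 0 to 10.9. mt-Nd3, another complex I subunit, had 99.0% of its windows elsewhere but none in an annotated gene, and it measured 0.169 to 0.335 M. The part of read assignment in these levels was not tested, and mt-Atp6 values below describe the reads that were counted.

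**Figure D1:**
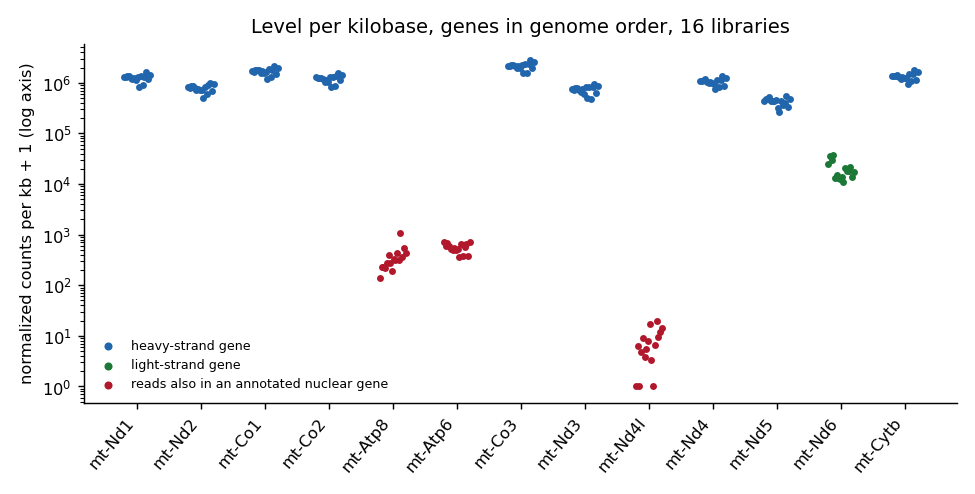
Normalized counts per kilobase of exon plus 1 (log axis) of the 13 mitochondrial protein genes in genome order, with 1 point for each of the 16 libraries. Colours mark heavy-strand genes, the light-strand gene and genes with windows inside an annotated nuclear gene, and the last of these (mt-Atp8, mt-Atp6 and mt-Nd4l) are the lowest.

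The 10 genes together took 39.2, 38.7, 40.03 and 39.8% of the library total in Sham-Veh replicates 1 to 4. Their share was 38.5, 36.4, 37.7 and 36.4% in Sham-THZ1 and 36.7, 32.5, 41.3 and 33.8% in TAC-Veh. In TAC-THZ1 it was 40.8, 43.7, 35.9 and 42.1%. The Sham-Veh mean was 39.4% ± 0.610 (SD, n = 4), and the means were 37.2% ± 1.03 for Sham-THZ1, 36.1% ± 3.94 for TAC-Veh and 40.6% ± 3.36 for TAC-THZ1. From Sham-Veh to TAC-Veh the mean share fell by 3.37 percentage points, less than the SD of TAC-Veh, and TAC-THZ1 was 4.55 points above TAC-Veh, with overlapping values in both cases. All 4 Sham-THZ1 libraries lay below all 4 Sham-Veh libraries, by 2.21 points on average. These sums have no test, since the genes were chosen with earlier results known.

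**Figure D2:**
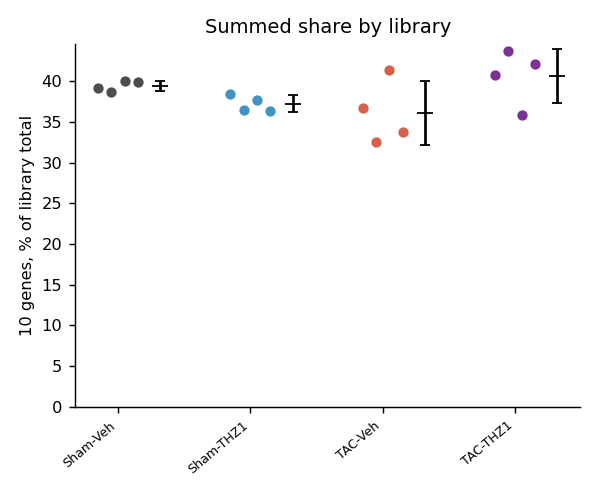
Share of each library's total normalized counts (percent) taken by the 10 genes, with 1 point per mouse and the group mean and SD (n = 4) at the right of each group. The TAC groups span 32.5% to 43.7% and the sham groups 36.4% to 40.03%.

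Complex I is the entry point of electrons from NADH, and mt-Nd1, mt-Nd2, mt-Nd4 and mt-Nd5 are subunits of its membrane arm. mt-Nd1 measured 1.22, 1.24, 1.28 and 1.29 M normalized counts in Sham-Veh replicates 1 to 4, and 1.20, 1.12, 1.18 and 1.07 in Sham-THZ1. The values were 1.27, 0.775, 1.31 and 0.868 in TAC-Veh and 1.27, 1.54, 1.14 and 1.36 in TAC-THZ1. The TAC-Veh group divided, with replicates 2 and 4 below all other 14 libraries, and replicates 1 and 3 within or above the Sham-Veh range. mt-Nd2 measured 0.848, 0.828, 0.884 and 0.893 M normalized counts in Sham-Veh replicates 1 to 4, and 0.830, 0.764, 0.788 and 0.735 in Sham-THZ1. In TAC-Veh mt-Nd2 was at 0.747, 0.523, 0.865 and 0.613, and in TAC-THZ1 at 0.920, 1.05, 0.721 and 0.965. Replicates 2 and 4 of TAC-Veh were again the lowest of all libraries, and TAC-THZ1 replicate 2 was the highest.

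mt-Nd4 measured 1.47, 1.52, 1.60 and 1.63 M normalized counts in Sham-Veh replicates 1 to 4, and 1.46, 1.34, 1.42 and 1.34 in Sham-THZ1. TAC-Veh held 1.29, 1.04, 1.59 and 1.15, and TAC-THZ1 held 1.57, 1.88, 1.18 and 1.72. TAC-Veh replicate 2 was lowest and TAC-THZ1 replicate 2 highest, and the constricted groups overlapped each other and both sham groups. mt-Nd5 measured 0.808, 0.856, 0.887 and 0.951 M normalized counts in Sham-Veh replicates 1 to 4, and 0.798, 0.800, 0.813 and 0.822 in Sham-THZ1. The values were 0.588, 0.486, 0.793 and 0.657 in TAC-Veh and 0.732, 1.02, 0.600 and 0.885 in TAC-THZ1. The 4 TAC-Veh values of mt-Nd5 were below all 4 Sham-Veh values, with a narrow gap between the nearest libraries.

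Complex III passes electrons to cytochrome c, and mt-Cytb is its cytochrome b. mt-Cytb measured 1.56, 1.56, 1.59 and 1.64 M normalized counts in Sham-Veh replicates 1 to 4, and 1.51, 1.37, 1.49 and 1.40 in Sham-THZ1. In TAC-Veh mt-Cytb was at 1.41, 1.09, 1.71 and 1.23, and in TAC-THZ1 at 1.67, 2.05, 1.28 and 1.83. TAC-Veh replicate 2 was lowest and TAC-THZ1 replicate 2 highest, as for mt-Nd4. Complex IV reduces oxygen, and mt-Co1, mt-Co2 and mt-Co3 form its catalytic core. mt-Co1 measured 2.67, 2.58, 2.79 and 2.77 M normalized counts in Sham-Veh replicates 1 to 4, and 2.77, 2.42, 2.63 and 2.46 in Sham-THZ1. TAC-Veh held 2.50, 1.86, 2.85 and 2.03, and TAC-THZ1 held 2.82, 3.34, 2.31 and 3.01. mt-Co1 had the highest normalized count of the 10 genes in every library.

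mt-Co2 measured 0.882, 0.845, 0.866 and 0.851 M normalized counts in Sham-Veh replicates 1 to 4, and 0.804, 0.722, 0.768 and 0.719 in Sham-THZ1. The values were 0.893, 0.566, 0.902 and 0.597 in TAC-Veh and 0.953, 1.06, 0.784 and 0.975 in TAC-THZ1. For mt-Co2, TAC-Veh replicates 1 and 3 were above every Sham-Veh library and replicates 2 and 4 below every one. mt-Co3 measured 1.70, 1.67, 1.73 and 1.74 M normalized counts in Sham-Veh replicates 1 to 4, and 1.70, 1.56, 1.68 and 1.53 in Sham-THZ1. In TAC-Veh mt-Co3 was at 1.73, 1.20, 1.85 and 1.20, and in TAC-THZ1 at 1.89, 2.18, 1.52 and 2.00. TAC-Veh replicates 2 and 4 were lowest again. Complex V makes ATP, and mt-Atp6 is part of its proton channel. mt-Atp6 measured 495, 412, 462 and 402 normalized counts in Sham-Veh replicates 1 to 4, and 352, 341, 371 and 335 in Sham-THZ1. In TAC-Veh mt-Atp6 was at 361, 248, 437 and 261, and in TAC-THZ1 at 381, 449, 263 and 476. Sham-Veh lay above Sham-THZ1 without overlap, and TAC-Veh overlapped Sham-Veh.

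mt-Nd6 measured 13087, 18386, 15585 and 19884 normalized counts in Sham-Veh replicates 1 to 4, and 6945, 7808, 6782 and 6524 in Sham-THZ1. In TAC-Veh mt-Nd6 was at 7084, 5734, 10935 and 9255, and in TAC-THZ1 at 9302, 11324, 7265 and 8839. mt-Nd6 is a further membrane subunit of complex I. Every Sham-Veh value of mt-Nd6 was above all 12 values of the other groups, which overlapped one another.

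**Figure D3:**
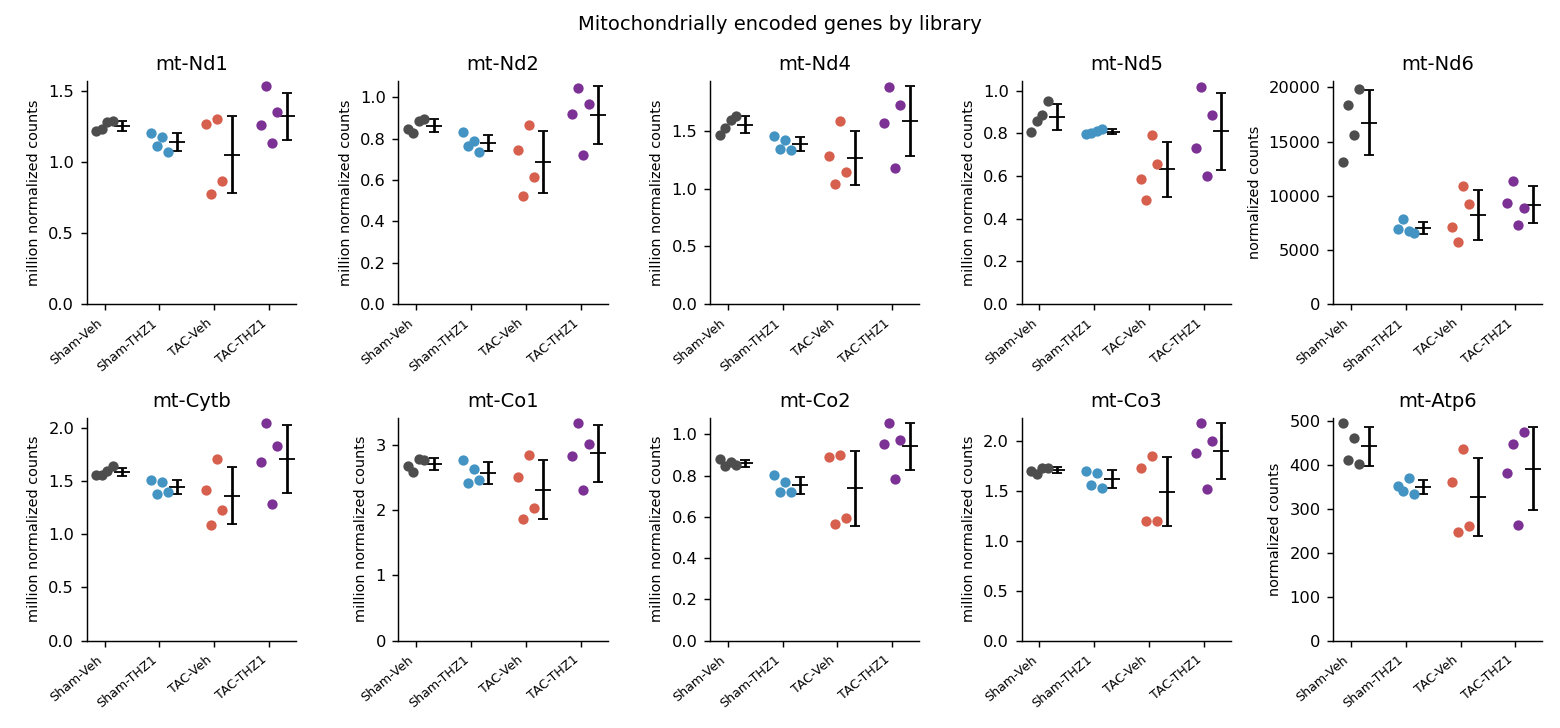
Normalized counts (in M, mega, for 8 genes) of each of the 10 genes by group, with 1 point per mouse and the group mean and SD (n = 4) at the right of each group. mt-Nd6 is high in Sham-Veh alone, and the other genes spread most in the constricted groups.

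The 8 heavy-strand genes other than mt-Atp6, a set formed after the values were seen and given as a description, moved together over libraries. The Pearson correlation of log2 values was 0.625 to 0.983 over their 28 pairs, with a median of 0.943, across 16 libraries that share size factors and groups. mt-Nd6 correlated with the same 8 genes at 0.362 to 0.611. The coefficient of variation of the 8 genes within a group was 1.70% to 6.85% in Sham-Veh, 1.44% to 6.39% in Sham-THZ1, 18.7% to 25.8% in TAC-Veh and 12.1% to 22.5% in TAC-THZ1. Relative to the Sham-Veh mean of each gene, the median of the 8 ratios was 0.908, 0.663, 1.04 and 0.724 in TAC-Veh replicates 1 to 4. It was 1.05, 1.22, 0.844 and 1.12 in TAC-THZ1.

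The effect of pressure overload was examined by comparing TAC-Veh with Sham-Veh. With limma over 13331 genes, all 10 genes had a log2 fold change below 0, and 2 of 10 passed an adjusted p of 0.05, both lower, where 45.0% of all genes tested passed in either direction and 23.6% were lower. mt-Nd6 fell by 1.05 on the log2 scale (SE 0.176, limma adjusted p = 1.88e-04), to 0.485 of its Sham-Veh level. mt-Atp6 had a log2 fold change of -0.47 (SE 0.178, limma adjusted p = 0.0398), but this call was kept in 20 of 31 alternatives. It was lost without Sham-Veh replicate 1, 2 or 3 or TAC-Veh replicate 2 or 4 (limma adjusted p = 0.0557 to 0.134). It was also lost with no filter, quantile normalization, the groups alone or the replicate block. With scaling to library totals or to reads outside the mitochondrial genome, mt-Nd5 was called in place of mt-Atp6. mt-Nd5 was at -0.49 (SE 0.209, adjusted p = 0.064) and did not pass with limma, although edgeR and DESeq2 on the recovered reads called it. The other 7 genes lay between -0.35 and -0.22, with adjusted p of 0.163 to 0.501. The median of the 10 was -0.30, and that of all genes tested -0.003.

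By overlap of the values, 2 of 10 genes (mt-Nd5 and mt-Nd6) had no TAC-Veh library within the Sham-Veh range, against 37.3% of all genes tested.

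The effect of THZ1 in constricted hearts was examined by comparing TAC-THZ1 with TAC-Veh. All 10 genes had a log2 fold change above 0, from 0.18 for mt-Nd6 to 0.42 for mt-Nd2 (SE 0.201, 95% CI -0.001 to 0.85), and the median was 0.34 against 0.015 for all genes. None of the 10 passed with limma, where the smallest adjusted p was 0.123, against 29.4% of all genes called and 15.1% called higher. None of the 10 had an unadjusted p under 0.05, where 5443 of the 13331 genes tested did. edgeR called 0 of 10 and DESeq2 called 7 of 10 on the same reads, so that the call depends on the tool. Of all 13331 genes, edgeR called 1956 higher and 2025 lower, and DESeq2 called 2081 higher and 2089 lower. Gm10925, the nuclear gene that shares windows with mt-Atp6 and was picked out after its values were seen, was called higher here (0.47, SE 0.142, limma adjusted p = 0.0207). It was also called in TAC-THZ1 against Sham-THZ1 (0.46, adjusted p = 0.0279) and in the interaction (0.69, adjusted p = 0.0392). TAC-THZ1 and TAC-Veh values overlapped for all 10 genes, where 20.0% of all genes tested did not overlap.

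In sham hearts, THZ1 was compared with vehicle to ask what the compound does without constriction. mt-Nd6 fell by 1.24 on the log2 scale (SE 0.176, limma adjusted p = 0.00667), to 0.424 of its level under vehicle. It was 1 of only 9 genes called among the 13331 tested, or 0.0675%. Without Sham-Veh replicate 2 its adjusted p was 0.051. The other 9 genes had log2 fold changes from -0.33 (mt-Atp6) to -0.07 (mt-Co1), with adjusted p of 0.771 to 0.988. In 6 of 10 genes (mt-Nd1, mt-Nd4, mt-Nd6, mt-Cytb, mt-Co2 and mt-Atp6) every Sham-THZ1 value was below every Sham-Veh value, against 11.3% of all genes tested with no overlap in either direction. The genes are not independent of each other, and these 6 had ratios of means from 0.419 to 0.910.

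Constricted and sham hearts under THZ1 were compared in the same way. None of the 10 genes passed with limma (24.2% of all genes did), and 1 had an unadjusted p under 0.05, against 5059 of the 13331 genes tested. Neither edgeR nor DESeq2 called any of the 10. Of all genes, edgeR called 1610 higher and 1637 lower, and DESeq2 called 1725 and 1866. The range was -0.03 (mt-Nd5) to 0.37 (mt-Nd6), and no gene was without overlap, against 33.4% of all genes.

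The effects of THZ1 in constricted and in sham hearts were compared with an interaction term. mt-Nd6 differed by 1.42 on the log2 scale (SE 0.249, limma adjusted p = 0.00393), since it fell with THZ1 in sham hearts and had a value of 0.18 in constricted hearts. It was the 1 gene of 10 that passed, against 10.0% of all genes. The other 9 were between 0.39 and 0.60, with adjusted p of 0.135 to 0.564. The comparisons share groups, and Sham-Veh enters all of those in which mt-Nd6 passed.

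**Figure D4:**
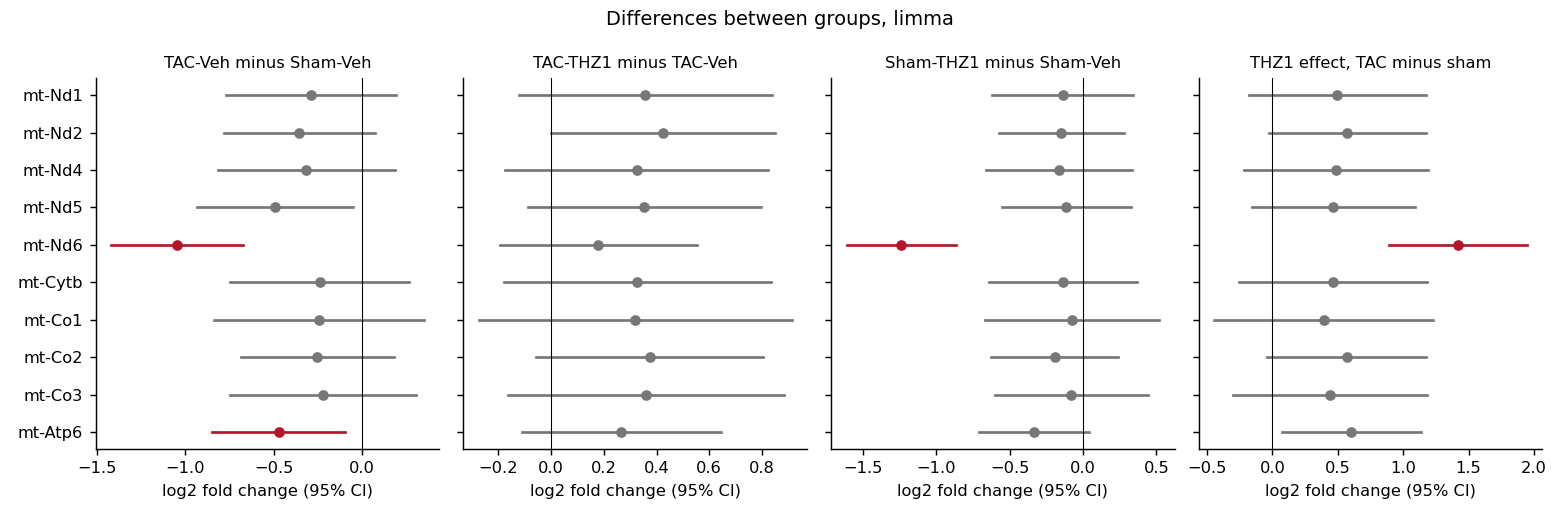
Log2 fold changes from limma for each of the 10 genes in 4 comparisons, with 95% confidence intervals, and red where the adjusted p was under 0.05. mt-Nd6 is red in 3 comparisons and mt-Atp6 in 1, and each panel has its own axis range.

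The share of mt-Nd6 in the summed counts of the 10 genes does not depend on the scaling of libraries. As a percent of the 10 genes' total, mt-Nd6 was at 0.117, 0.165, 0.134 and 0.169 in Sham-Veh and 0.0626, 0.0772, 0.0629 and 0.0648 in Sham-THZ1. It was at 0.0679, 0.0760, 0.0921 and 0.111 in TAC-Veh and 0.0786, 0.0802, 0.0762 and 0.0693 in TAC-THZ1. Both Sham-THZ1 and TAC-Veh lay wholly below Sham-Veh, by 0.079 and 0.060 percentage points. Each difference had an exact two-sided permutation p = 0.0286, the smallest that 4 against 4 allows and an adjusted p = 0.057 over 4 comparisons, so neither passed after adjustment. With only these comparisons at the smallest p, a larger difference would have given the same adjusted p. Not passing therefore says nothing of the size of the differences. TAC-THZ1 and TAC-Veh differed by -0.011 points (exact permutation p = 0.4), and TAC-THZ1 and Sham-THZ1 by 0.009 points (exact permutation p = 0.0857).

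Because mt-Nd6 is read from the strand opposite to abundant messages, genes that lie opposite to abundant partners were examined at other loci. Their ratio to the partner cannot tell reads assigned to the wrong strand from transcription of the gene itself. In 67 nuclear gene pairs, a gene had at least 50% of its exon bases over a partner on the opposite strand. The partner was at least 100 times more abundant. mt-Nd6, with 519 bases, overlaps mt-Nd5 over only 14 bases and would not meet this rule, so the pairs differ from it in layout. The gene averaged at least 10 normalized counts in only 3 of the 67, so the index rests mostly on genes near 0 counts. The index, the median over pairs of the log2 ratio of gene to partner relative to its mean, was 0.024 to 0.204 in Sham-Veh, -0.281 to -0.105 in Sham-THZ1, -0.153 to 0.112 in TAC-Veh and -0.176 to 0.064 in TAC-THZ1. Sham-Veh did not overlap Sham-THZ1 but did overlap both constricted groups. Within TAC-Veh, replicate 1 had the highest index and replicate 4 the lowest. Replicate 3 had the most mt-Nd6 as a normalized count, and replicate 4 the most as a share of the 10 genes' total. Of the 3 pairs with the most abundant partner, Gm10129 over Dsp averaged 0.012% of its partner and Sycp3 over Chpt1 0.019%. The other, AF085738 over Gnas, was at 1.56% to 1.82% in Sham-Veh and 0.340% to 1.06% in the other 12 libraries. A further 6 summaries of such pairs were added after the data were seen, and in 5 of these 6, AF085738 alone among them, Sham-Veh lay above all other libraries. All 6 contain AF085738, so they are not separate results. Among the 6, the index over the 3 pairs whose gene averaged at least 10 normalized counts was 0.644 to 0.879 in Sham-Veh and at most 0.193 elsewhere. The genes of these 3 pairs averaged 148 (AF085738), 12.9 (A230065N10Rik) and 11.3 (Cntd1) normalized counts. A wider set of 8 pairs, also formed after the data were seen, had partners at least 20 times more abundant. For AF085738 and Cntd1 (2 of 8, or 25.0%) the ratio to the partner was higher in every Sham-Veh library than in the other 12. The share of all genes tested, 1.05%, is for normalized counts and not for ratios, so these shares are unlike measures. The median index of the 8 pairs overlapped between Sham-Veh and both Sham-THZ1 and TAC-Veh. AF085738 over Gnas was highest in Sham-Veh, as mt-Nd6 was. The index over 67 pairs and the median index of the 8 pairs did not set Sham-Veh apart from all other groups. The relation of any of these measures to mt-Nd6 was not tested.

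**Figure D5:**
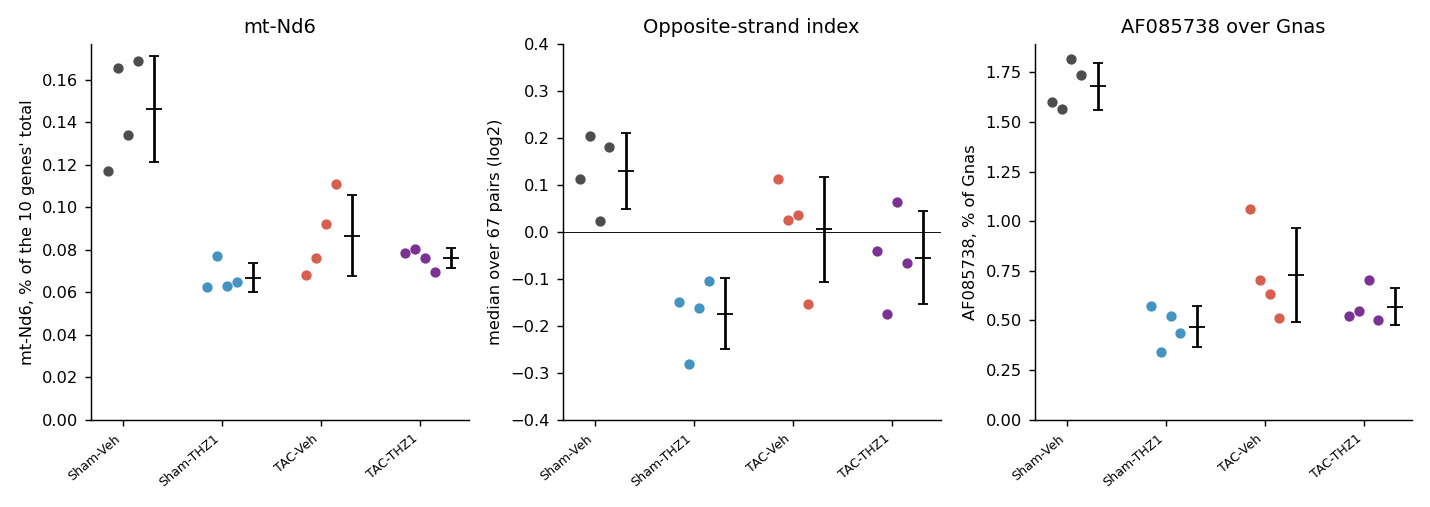
The left panel shows mt-Nd6 as a percent of the 10 genes' total. The middle panel shows the log2 index of gene to opposite-strand partner over 67 nuclear pairs. The right panel shows AF085738 as a percent of Gnas. Points are mice with the group mean and SD (n = 4). Sham-Veh is highest and apart in the left and right panels, and overlaps the constricted groups in the middle panel.

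Markers of cell types moved with constriction beside these genes. The summed level of 6 cardiomyocyte markers, none at 0, was 1.12 to 1.22 M normalized counts in Sham-Veh, 1.16 to 1.20 M in Sham-THZ1, 0.586 to 0.846 M in TAC-Veh and 0.923 to 1.13 M in TAC-THZ1. That of 6 fibroblast markers was 26660 to 29560 in Sham-Veh, 25850 to 28390 in Sham-THZ1, 51270 to 91250 in TAC-Veh and 27720 to 39140 in TAC-THZ1. TAC-Veh replicate 2, the lowest library for the 10 genes together, had the least cardiomyocyte and the most fibroblast signal. TAC-Veh replicate 4, the next lowest, had more cardiomyocyte signal than replicate 1. In bulk tissue, fewer cells of a type and less RNA per cell cannot be told apart, and the part of cell composition was not tested. The 5 endothelial markers summed to 17580 to 19320 in Sham-Veh, 19240 to 20670 in Sham-THZ1, 15640 to 19930 in TAC-Veh and 14500 to 15960 in TAC-THZ1, where they lay below both sham groups. The 5 smooth muscle and pericyte markers summed to 20890 to 23770, 22660 to 23730, 16540 to 22900 and 16770 to 17480 in the same order, and those of TAC-THZ1 again lay below both sham groups. The 5 macrophage markers summed to 3159 to 3720, 2996 to 3637, 4829 to 6174 and 3338 to 6429, and those of TAC-Veh lay above both sham groups. The 4 neutrophil markers summed to 15.9 to 391 outside TAC-THZ1 and to 135 to 6461 within it, where replicates 1 and 3 were highest. The 3 erythroid markers summed to 4651 to 25880, and the 3 adipocyte markers to 1.01 to 19.5. Single markers did not all move with these sums. With constriction under vehicle, 1 endothelial marker was called higher and 2 lower, as were 1 and 2 smooth muscle and pericyte markers. In TAC-THZ1 against Sham-THZ1, the calls were 1 higher and 3 lower for endothelial, 0 and 3 for smooth muscle and pericyte, and 2 and 1 for fibroblast markers.

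The nuclear genome encodes the other subunits and everything that expresses the mitochondrial one. In TAC-THZ1 against TAC-Veh, 33 of 37 nuclear-encoded subunits of complex I tested were called higher, as were 8 of 9 of complex III, 9 of 16 of complex IV and 13 of 16 of complex V, against 15.1% of all genes tested, and none was called lower. Their medians were 0.41, 0.44, 0.41 and 0.46 on the log2 scale, and the 10 mitochondrial genes were at 0.18 to 0.42 with SEs of 0.176 to 0.281. In TAC-Veh against Sham-Veh, 9, 4, 3 and 7 of them were called lower and 0, 0, 2 and 0 higher, where 23.6% of all genes tested were lower. For complexes I and IV the lower calls were thus near or below that share. In sham hearts none of these subunits was called with limma.

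With constriction under vehicle, the medians of these subunits were -0.15, -0.26, -0.20 and -0.29 for complexes I, III, IV and V. The subunits named here had the largest called changes of each complex and do not give the typical size. Ndufs1, an iron-sulfur subunit of complex I, fell with constriction by 0.73 on the log2 scale (SE 0.090, limma adjusted p = 1.15e-05), and Ndufv1, which binds NADH, fell by 0.56. Uqcrc1 and Uqcrfs1 of complex III fell by 0.57 and 0.47, Cox7a1 of complex IV by 0.68, and Atp5a1 and Atp5b, the catalytic part of complex V, by 0.57 and 0.49. Cox8a rose by 0.36. With THZ1 in constricted hearts the largest rises were Ndufa5 (0.56) and Ndufs7 (0.54), Uqcrb (0.48) and Uqcrc1 (0.47), Cox6a2 (0.56) and Cox7a1 (0.52), and Atp5g3 (0.52) and Atp5c1 (0.49), each with a limma adjusted p under 0.05.

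Of 20 genes for transcription and replication of mitochondrial DNA, 8 were called lower and 1 higher with constriction, and 10 higher and 0 lower with THZ1 in constricted hearts. Over all genes tested, 23.6% were lower with constriction and 15.1% higher with THZ1. Mgme1, an exonuclease for mitochondrial DNA, fell by 0.62 with constriction (SE 0.107, limma adjusted p = 2.30e-04) and rose by 0.60 with THZ1. Twnk, the mitochondrial helicase, fell by 0.57 with constriction, and Mterf2 rose by 0.49 with THZ1. Of 22 genes for processing and stability of mitochondrial RNA, 12 were lower and 1 higher with constriction, and 13 higher and 1 lower with THZ1. Lrpprc, which stabilises mitochondrial messages, fell by 0.68 (SE 0.093, limma adjusted p = 2.76e-05), and Fastkd1 fell by 0.79 with constriction and rose by 0.60 with THZ1. Hsd17b10, a subunit of mitochondrial RNase P, rose by 0.57 with THZ1.

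Beside the same shares of all genes (23.6% lower with constriction, 15.1% higher with THZ1), 8 of 12 mitochondrial translation factors were lower with constriction and 7 higher with THZ1. Gfm1, an elongation factor, was down by 0.49 and Mtrf1l, a release factor, down by 0.45 with constriction and up by 0.52 with THZ1. Oxa1l, which inserts new subunits into the inner membrane, rose by 0.41 with THZ1. Of 35 assembly factors, 15 were lower and 3 higher with constriction, and 21 higher with THZ1. Coa7 fell by 0.59 and Uqcc3 rose by 0.59 with constriction, and Ndufaf4 and Cox10 each rose by 0.52 with THZ1. Of 12 regulators of mitochondrial biogenesis, 8 were lower with constriction and 4 higher with THZ1. Ppargc1b, a coactivator, fell by 1.30 (SE 0.234, limma adjusted p = 3.33e-04) and Esrrg, a nuclear receptor, by 0.84, and Ppargc1a and Esrra rose by 0.70 and 0.55 with THZ1. The lists had medians of -0.23, -0.21, -0.23, -0.16 and -0.46 with constriction and of 0.25, 0.28, 0.26, 0.28 and 0.24 with THZ1, in the order given. In sham hearts THZ1 called none of the genes of these lists. Among the other mitochondrial protein genes, mt-Atp8 was called higher with constriction (0.77, SE 0.281, limma adjusted p = 0.0348) and in TAC-THZ1 against Sham-THZ1 (1.00, SE 0.281, limma adjusted p = 0.018), at its low counts. With constriction under vehicle mt-Nd3 was at -0.24 (adjusted p = 0.318), and mt-Nd4l was below the filter.

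Among the 10306 nuclear genes whose mean normalized count reached 100, those closest over the 16 libraries to the mean log2 value of the 9 heavy-strand genes were Rbfa (r = 0.937), Immp1l (0.930), Ckmt2 (0.919), Apoo (0.918) and Pigy (0.903). Ckmt2, the mitochondrial creatine kinase of muscle, ranged from 31684 to 47777 normalized counts in TAC-Veh and from 45287 to 47574 in Sham-Veh. Closest to mt-Nd6 were Xrcc5 (r = 0.815), Sec22a (0.789), A930016O22Rik (0.784), Apbb2 (0.769) and AF085738 (0.762). A930016O22Rik was at 241 to 276 normalized counts in Sham-Veh and 80.1 to 154 in the other groups. All these libraries share groups and size factors.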

How the data were processed

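Ventricle RNA of 16 mice was sequenced from stranded poly(A) libraries. Per the labels and the methods of the study, reads were aligned to mm9 with TopHat 2.1.1 and counted per gene with htseq-count in reverse-stranded mode. The authors divided each library's counts by a DESeq2 size factor, so the deposited signal is a normalized count. Dividing by the smallest step of each library gave whole reads for 100% of values (within 0.01). All 22372 identifiers matched the annotation on NCBIM37. Ribosomal and transfer RNAs were not analysed here.

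log2(normalized count + 1) was fitted with limma 3.58.1 in R 4.3.3, with 1 mean per group and a variance trend, over genes at 10 or more in at least 4 libraries, and p-values were adjusted by Benjamini-Hochberg within each comparison. edgeR 4.0.16 and DESeq2 1.42.0 on the recovered reads were alternatives. The fits were tested on simulated data. Named genes were the 10 genes, the other 3 mitochondrial protein genes, the 2 called genes of each list with the largest change in TAC-Veh against Sham-Veh and the 2 in TAC-THZ1 against TAC-Veh, the 5 nuclear genes most like each pattern, 3 opposite-strand pairs, and Myh6 and Nppb. Newer symbols were matched to older ones through a RefSeq table. Members and lists were chosen with earlier results of these data known. Replicates were separate mice, and no batch was labelled. Per the methods of the study, libraries were made with a TruSeq or a KAPA HyperPrep kit. The kit of each library is not stated, so whether it differed between groups cannot be told.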

Additional observations from a re-analysis of the deposited data

Results flagged for a closer look

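The difference between the THZ1 effects in constricted and sham hearts was 1.42 on the log2 scale for mt-Nd6 (limma interaction, adjusted p = 0.00393).

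A library stood apart in 4 of 88 groups of 4 checked with Dixon's test, where chance gives about 1 in 20. TAC-THZ1 replicate 3 was low for mt-Nd2, at 2.71% of the library total. TAC-Veh replicate 3 was high for mt-Nd4, at 5.52%. Sham-THZ1 replicate 2 was high for mt-Nd6, at 0.028% of the library total and 0.077% of the total of the 10 genes.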

How the results depend on the processing

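The call of mt-Nd6 was kept in 31 of 31 alternatives for constriction under vehicle (-1.20 to -0.88), in 30 of 31 for THZ1 in sham hearts (-1.35 to -1.15) and in 30 of 30 for the interaction (1.21 to 1.57).

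For constriction under vehicle, 2 genes passed. The count was 1 with no filter, quantile normalization, the groups alone, the replicate block, an adjusted p under 0.01, the fold threshold of the study or without mt-Atp6, which was an alternative chosen after seeing the data, and 4 with robust eBayes and with DESeq2 with and without a filter. For THZ1 in constricted hearts 0 passed, against 1 with scaling to library totals or robust eBayes, 7 with DESeq2 and 5 with DESeq2 without a filter. In sham hearts 1 passed, and 2 with the groups alone. For constriction under THZ1, 0 passed, and 1 (mt-Nd6) with array weights or the groups alone. For the interaction 1 passed, with 2 under array weights and 3 with DESeq2 with or without a filter. Leaving out 1 library gave 1 to 3 genes, 0 to 1, 0 to 1, 0 and 1 to 2 in these 5 comparisons. Without TAC-Veh replicate 3 or TAC-THZ1 replicate 3, 1 gene passed for THZ1 in constricted hearts and 2 for the interaction. The cause was not tested.

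Quantile normalization turned the direction of mt-Nd2 (0.027), mt-Cytb (0.054) and mt-Co2 (0.065) for constriction under vehicle, of mt-Nd5 (-0.046) and mt-Cytb (-0.036) for THZ1 in constricted hearts, of mt-Nd2 (0.046) and mt-Cytb (0.018) in sham hearts, of mt-Nd2 (-0.019) for constriction under THZ1 and of mt-Nd2 (-0.046), mt-Nd5 (-0.046) and mt-Cytb (-0.054) for the interaction. It gives the ranks of each library the same values, which fixes the most abundant genes. mt-Nd5 for constriction under THZ1 turned to 0.034 with array weights, 0.0045 with edgeR, 0.0024 with DESeq2, 0.0014 with DESeq2 without a filter, and 0.012 and 0.107 without TAC-THZ1 replicates 1 and 3, and was -0.147 to 0.107 over all libraries left out in turn. Scaling to library totals shifted the median of all genes by 0.14, -0.16, 0.04, -0.06 and -0.19 in the 5 comparisons, and called 783 genes higher and 3201 lower for THZ1 in constricted hearts, against 2019 and 1899. On the recovered reads edgeR called 3017 genes higher and 3050 lower for constriction under vehicle, and 1956 and 2025 for THZ1 in constricted hearts. DESeq2 called 3021 higher and 3117 lower for constriction under vehicle. It called 2081 and 2089 for THZ1 in constricted hearts, and 851 and 984 for the interaction.

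The summed share changed by -5.13 to -2.17 points for constriction under vehicle, 3.34 to 6.30 for THZ1 in constricted hearts, -2.63 to -1.93 in sham hearts and 2.38 to 4.96 for constriction under THZ1 when 1 library was left out. Same-numbered libraries of different groups had correlations from -0.431 to 0.164, with 2 of 24 over 0.1, so the numbers only name the mice, and the replicate block changed no other count of calls.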
